A study of Mus musculus with 3 samples.

Results

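The genes described here are 10 scavenger and apoptotic-cell uptake genes of the mouse, chosen by name: Msr1, Marco, Cd36, Mrc1, Cd163, Stab1, Mertk, Axl, Gas6 and Cd68. They are 10 of the 55536 annotated genes in the tables, and all 10 were found there by gene identifier. RNA that stays bound to chromatin was sequenced after depletion of ribosomal RNA from macrophages that had been grown from the marrow of C57BL/6J mice. The cells had been given Lipid A, the active part of bacterial lipopolysaccharide, at 100 ng per ml, and were collected after 40 min. All libraries belong to this 1 group of 3 biological replicates, which started from 1 µg (replicate 1), 250 ng (replicate 2) and 500 ng (replicate 3) of RNA. The labels list the replicates as separate biosamples of 1 donor entry and give neither sex nor age, so the spread between them may be partly technical. Untreated cells were not analysed here, so each level was set against other genes of the same library, and nothing below is a response to Lipid A.

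Scavenger receptors are surface proteins that bind modified lipoproteins, microbial surfaces and debris and carry them into the cell. Uptake of dying cells uses partly the same receptors, and also the TAM kinases (Tyro3, Axl and Mertk), which recognise exposed phosphatidylserine through the bridging proteins Gas6 and protein S. Of the 10 genes, Msr1, Marco, Cd36, Mrc1, Cd163 and Stab1 encode scavenger or mannose receptors, Mertk and Axl encode receptor kinases, Gas6 encodes a secreted ligand, and Cd68 encodes a glycoprotein of late endosomes and lysosomes. The label of uptake receptors therefore holds for 8 of them at the cell surface.

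Promoter sequences are shown first for 6 genes. Stab1, Cd36 and Marco were far above their mean in the same 1 library, Marco on 12, 40 and 13 counts. Mrc1 and Mertk were the most even of the 10 across libraries, and Cd68 held the most motif matches. Each window runs from 250 bases before to 50 bases after the start site of the RefSeq table (build GRCm38.p6) and is written 5′ to 3′ on the strand of the gene. Capitals mark matches, on either strand, to GAGGAA (the core bound by PU.1), TTGCNNAA (C/EBP), TGANTCA (AP-1), a κB-like motif, CACGTG (E-box) and TATAAA. The matches do not overlap each other in these windows. The Stab1 window lies at chr14:31168592-31168891 (minus strand), that of Cd36 at chr5:17835847-17836146 (minus), that of Marco at chr1:120504975-120505274 (minus), that of Mrc1 at chr2:14229164-14229463 (plus), that of Mertk at chr2:128698665-128698964 (plus) and that of Cd68 at chr11:69666121-69666420 (minus).
Stab1: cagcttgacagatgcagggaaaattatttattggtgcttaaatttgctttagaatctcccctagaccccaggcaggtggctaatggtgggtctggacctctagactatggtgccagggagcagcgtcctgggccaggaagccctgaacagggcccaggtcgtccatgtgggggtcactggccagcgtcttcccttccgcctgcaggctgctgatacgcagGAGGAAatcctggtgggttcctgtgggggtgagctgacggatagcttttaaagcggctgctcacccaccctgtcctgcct
Cd36: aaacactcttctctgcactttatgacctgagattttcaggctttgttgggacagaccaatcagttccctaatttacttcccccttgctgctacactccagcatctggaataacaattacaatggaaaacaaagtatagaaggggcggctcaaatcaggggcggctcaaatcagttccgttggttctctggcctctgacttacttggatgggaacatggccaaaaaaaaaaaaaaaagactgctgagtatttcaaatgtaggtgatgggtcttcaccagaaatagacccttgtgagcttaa
Marco: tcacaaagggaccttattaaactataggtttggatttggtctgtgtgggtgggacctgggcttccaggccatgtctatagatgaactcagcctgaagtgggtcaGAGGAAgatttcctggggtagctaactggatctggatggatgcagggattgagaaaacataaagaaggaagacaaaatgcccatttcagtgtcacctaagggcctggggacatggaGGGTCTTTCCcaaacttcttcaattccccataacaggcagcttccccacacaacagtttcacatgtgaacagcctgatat
Mrc1: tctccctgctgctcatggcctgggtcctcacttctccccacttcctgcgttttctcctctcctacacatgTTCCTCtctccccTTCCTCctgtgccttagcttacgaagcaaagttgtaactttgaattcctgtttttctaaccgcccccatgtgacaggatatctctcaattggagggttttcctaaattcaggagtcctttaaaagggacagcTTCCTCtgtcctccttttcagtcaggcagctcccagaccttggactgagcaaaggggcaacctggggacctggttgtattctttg
Mertk: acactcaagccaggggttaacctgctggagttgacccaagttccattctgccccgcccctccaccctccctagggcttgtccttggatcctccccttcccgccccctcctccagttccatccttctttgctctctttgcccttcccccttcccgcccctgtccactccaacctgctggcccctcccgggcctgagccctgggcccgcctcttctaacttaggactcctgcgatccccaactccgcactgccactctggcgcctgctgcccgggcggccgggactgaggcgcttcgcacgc
Cd68: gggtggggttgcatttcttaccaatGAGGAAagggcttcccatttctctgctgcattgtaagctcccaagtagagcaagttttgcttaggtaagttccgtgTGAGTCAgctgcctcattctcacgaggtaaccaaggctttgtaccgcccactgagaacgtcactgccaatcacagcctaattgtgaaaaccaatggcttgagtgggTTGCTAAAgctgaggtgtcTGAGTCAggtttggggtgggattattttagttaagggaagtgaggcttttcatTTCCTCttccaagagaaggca

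GAGGAA was found in 5 of the 9 windows matched in the RefSeq table (Axl, Cd68, Marco, Mrc1 and Stab1), and in 28.3% of all 32851 promoters of the same length. The Mrc1 window holds 3 copies, the first of them starting 180 bases before the start site, and the Stab1 window holds 1 copy, 30 bases before it. TTGCNNAA was present in 1 member window, that of Cd68, and in 10.8% of all promoters. TGANTCA was likewise present in the Cd68 window alone, in 2 copies, and in 7.81% of all promoters. The κB-like motif was present in the Marco window alone, 30 bases before the start, and in 5.56% of all promoters. CACGTG and TATAAA (7.15% and 13.6% of all promoters) were in none of the 9 windows. The windows of Cd36, Cd163, Mertk and Gas6 held none of the 6 motifs. These are matches of letters and do not show binding.

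Levels are given in TPM, a unit scaled for sequencing depth and transcript length, so that genes can be compared. The 10 genes ranged from Stab1 at a mean of 568 TPM to Cd163 at 0.633 TPM. Relative to the reference gene, defined as the median of 8758 nuclear protein-coding genes with a mean of at least 1 TPM (7.56, 6.63 and 6.56 TPM in replicates 1, 2 and 3), 7 of the 10 were higher, 2 were lower (Marco and Cd163), and Axl was neither. Called means an adjusted p under 0.05 in limma's treat test for a level more than 2-fold from the reference, with Benjamini-Hochberg adjustment over the 18442 genes tested. Of all genes tested, 15.1% were called higher and 52.5% lower, and of the 12310 nuclear protein-coding genes among them 19.4% and 44.6%. The median log2 level against the reference was 2.58 over the 10 genes and -1.75 over all genes tested. Over the nuclear protein-coding genes tested it was -1.10. All 10 had a mean TPM of at least 0.1, the minimum for testing a gene outside the lists used here, and 8 of 10 had at least 1 TPM. Differences in level in bulk RNA cannot be divided between fewer cells of a type and less RNA per cell.

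**Figure D1:**
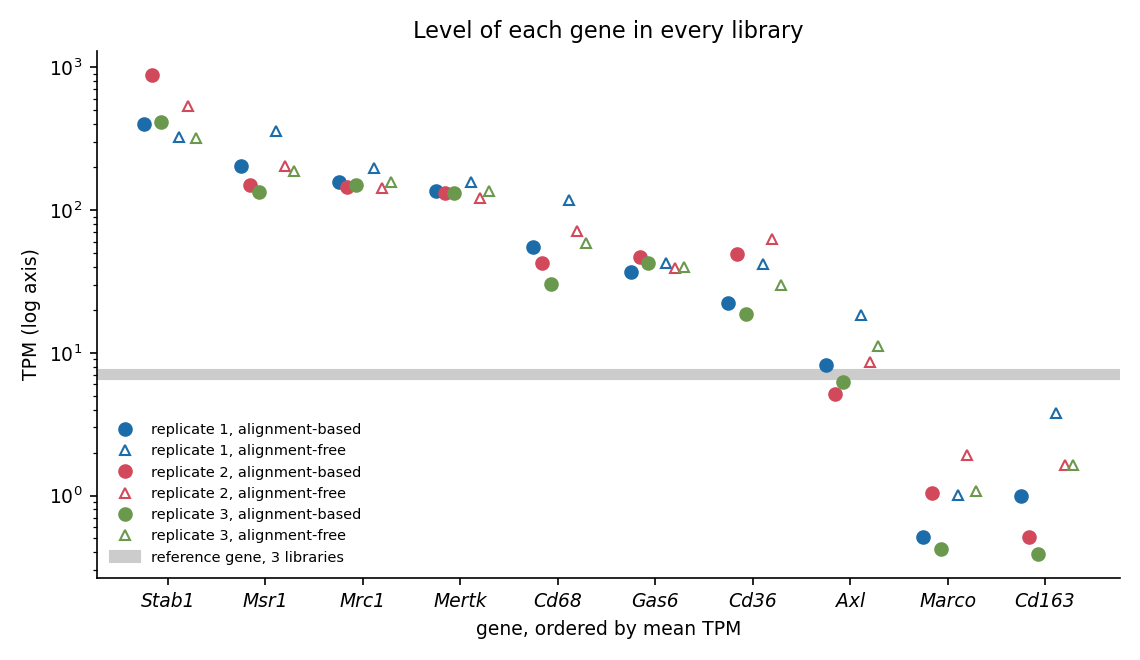
Level of each of the 10 genes (x axis, ordered by mean TPM) in TPM (y axis, log scale) in the 3 libraries, with circles for the alignment-based and triangles for the alignment-free table. The grey band spans the reference gene of the alignment-based table in the 3 libraries and is not the reference for the triangles. Stab1 is highest among the circles, the circles of Axl lie close to the band on either side, and Marco and Cd163 lie below it in every library.

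The class A scavenger receptors, collagen-like trimers that bind polyanions, lay at opposite ends of the range. Msr1 (ENSMUSG00000025044.16, chr8:39581685-39642673, minus strand, mm10), which takes up acetylated lipoproteins, stood at 204, 150 and 133 TPM in replicates 1, 2 and 3, on 8056, 9206 and 7947 expected counts. It was high in every library, and its log2 level against the reference was 4.51 (SE 0.14, higher in 3 of 3 libraries, limma with Benjamini-Hochberg adjusted p = 4.4e-05). Marco (ENSMUSG00000026390.7, chr1:120474538-120505024, minus), a receptor for bacteria and particles best known from alveolar and marginal-zone macrophages, stood at 0.51, 1.04 and 0.42 TPM. These values rest on 12, 40 and 13 counts, or 0.945, 2.19 and 0.719 CPM of the library total (exact Clopper-Pearson 95% intervals 0.488 to 1.65, 1.56 to 2.98 and 0.383 to 1.23). Replicate 2 was the highest, with an interval of counting error that overlapped that of replicate 1 but not that of replicate 3. The deposited TPM intervals (0.316 to 2.16, 0.787 to 2.53 and 0.253 to 1.88) overlapped between all 3 libraries. Marco was lower than the reference in 3 of 3 libraries (log2 -3.30, SE 0.32, limma with Benjamini-Hochberg adjusted p = 0.00086).

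Cd36 and Stab1 were higher than the reference but uneven between libraries. Cd36 (ENSMUSG00000002944.15, chr5:17781690-17888801, minus), the class B receptor for oxidised lipoproteins, long-chain fatty acids and thrombospondin, stood at 22.3, 49.6 and 18.8 TPM on 612, 2152 and 865 counts. Replicate 2 was above both other libraries, which lay close together, and the log2 level over all 3 was 1.98 (SE 0.30, limma with Benjamini-Hochberg adjusted p = 0.016). Without replicate 2 it was 1.53 (limma with Benjamini-Hochberg adjusted p = 0.011), and with a 4-fold band, or a reference taken from genes with at least 5 TPM, Cd36 was no longer called. Stab1 (ENSMUSG00000042286.13, chr14:31139013-31168641, minus), the large clearance receptor stabilin-1 of macrophages and sinusoidal endothelium, stood at 403, 887 and 413 TPM on 21442, 75324 and 39305 counts. It too was highest in replicate 2. Replicates 1 and 3 were close in TPM but not in counts, where they held 1688 and 2173 CPM of the library total (exact Clopper-Pearson 95% intervals 1666 to 1711 and 2152 to 2195). Its log2 level was 6.24 (SE 0.29, limma with Benjamini-Hochberg adjusted p = 9.5e-05), and 5.84 without replicate 2.

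The hemoglobin scavenger receptor and the mannose receptor, both widely used as markers of alternatively activated macrophages, differed from each other in level. Mrc1 (ENSMUSG00000026712.3, chr2:14229392-14332057, plus), which binds mannosylated glycoproteins, stood at 157, 145 and 149 TPM on 10430, 16604 and 15498 counts, at nearly the same level in every library. Its log2 level was 4.43 (SE 0.12, limma with Benjamini-Hochberg adjusted p = 3.7e-05). Cd163 (ENSMUSG00000008845.9, chr6:124304656-124330527, plus), which takes up hemoglobin bound to haptoglobin, stood at 1.00, 0.51 and 0.39 TPM on 55, 49 and 35 counts. Replicate 1 was the highest and replicate 3 the lowest, and all 3 were below the reference (log2 -3.34, SE 0.29, limma with Benjamini-Hochberg adjusted p = 0.00057).

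Among the genes of the TAM system, Mertk was high, Axl lay at the reference and the ligand gene Gas6 lay between them. Mertk (ENSMUSG00000014361.5, chr2:128698956-128802894, plus), the main TAM receptor for dying cells in resting macrophages, stood at 136, 131 and 132 TPM on 7365, 11567 and 10836 counts, the narrowest range of the 10 genes on this scale. Its log2 level was 4.25 (SE 0.12, limma with Benjamini-Hochberg adjusted p = 4.0e-05). Axl (ENSMUSG00000002602.16, chr7:25757273-25788705, minus), a TAM receptor known to be induced by interferon and inflammatory stimuli, stood at 8.17, 5.14 and 6.26 TPM on 296, 367 and 286 counts. Replicate 1 was above the reference gene and the other two were below it, and the log2 level was -0.11 (SE 0.15, limma with Benjamini-Hochberg adjusted p = 1). The sign for Axl turned without replicate 2 (0.03), in the alignment-free table (0.75) and with a reference from genes of at least 0.1 TPM (0.96), and it was called in none of these. Gas6 (ENSMUSG00000031451.6, chr8:13465374-13494490, minus), which binds all TAM receptors, stood at 37.0, 46.7 and 42.8 TPM on 1197, 2458 and 2102 counts. All 3 values were above the reference (log2 2.59, SE 0.15, limma with Benjamini-Hochberg adjusted p = 0.00029).

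Cd68 (ENSMUSG00000018774.13, chr11:69664213-69666153, minus), a common histological marker of macrophages and by far the shortest of the 10 loci at 1941 bases, stood at 54.9, 42.5 and 30.6 TPM on 761, 950 and 638 counts. Replicate 1 was the highest and replicate 3 the lowest. Its log2 level was 2.57 (SE 0.16, limma with Benjamini-Hochberg adjusted p = 0.00034).

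The genes were ordered by mean TPM, and the 9 pairs of neighbours in that order were compared. Each comparison was a difference of log2(TPM + 0.1) in every library, which understates differences of genes near 0. Since the order came from the same libraries, the sign of a mean difference was largely given by it. Neighbours were counted as apart when the sign was the same in 3 of 3 libraries and the mean was over 2 SD. Where 1 replicate was left out, the sign had to be the same in 2 of 2 libraries, and the SD is over 2 values. No p is given, since an exact sign-flip test over 3 libraries cannot go below 0.25. By this rule 5 of the 9 pairs were apart. Stab1 exceeded Msr1 by 1.73 ± 0.80 (SD, n = 3), Mrc1 exceeded Mertk by 0.18 ± 0.03, and Mertk exceeded Cd68 by 1.68 ± 0.41. Lower down, Cd36 exceeded Axl by 2.08 ± 1.01, and Axl exceeded Marco by 3.19 ± 0.86. The pairs Msr1 and Mrc1 (0.09 ± 0.27), Cd68 and Gas6 (-0.02 ± 0.54), Gas6 and Cd36 (0.61 ± 0.65) and Marco and Cd163 (0.05 ± 0.88) did not differ beyond their spread. Several of these calls rested on the table, the isoforms or the libraries used. In the alignment-free table Cd68 exceeded Gas6 by 0.97 ± 0.47, with protein-coding isoforms only Msr1 minus Mrc1 was -0.52 ± 0.20, and without replicate 2 Gas6 exceeded Cd36 by 0.96 ± 0.32, and each of these passed the rule. The first place of Stab1 was likewise not fixed. In the alignment-free table its difference to Msr1 was 0.69 ± 0.78, with Msr1 (358 TPM) above Stab1 (327 TPM) in replicate 1, and without replicate 3 it was 1.77 ± 1.12. Neither of the differences between Stab1 and Msr1 passed the rule. Without replicate 3, Cd36 and Axl were not apart either (2.34 ± 1.28), and 3 of the 9 pairs remained apart.

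Close relatives were compared in the same way. Mertk exceeded Axl by 4.35 ± 0.31 on the log2 scale, or 20.5-fold, in 3 of 3 libraries; this was 11.3-fold in the alignment-free table and 29.9-fold with protein-coding isoforms only. The third TAM receptor gene, Tyro3, was listed at 0.02, 0.06 and 0.10 TPM, on 1, 5 and 8 counts. Gas6 exceeded Pros1, the gene of the other TAM ligand protein S (1.92 ± 0.09 TPM, SD, n = 3), by 4.38 ± 0.11, or 20.8-fold. Stab1 exceeded Stab2, its paralog in sinusoidal endothelium (13.5, 18.6 and 9.93 TPM), by 5.27 ± 0.35, or 38.7-fold. That ratio was 19.8-fold in the alignment-free table and 245-fold with protein-coding isoforms only. Cd36 exceeded its class B relative Scarb1, the receptor of high-density lipoprotein (8.70 ± 2.23 TPM), by 1.68 ± 0.41. In the alignment-free table this difference was 0.87 ± 0.77 and did not pass the rule, and with protein-coding isoforms only it was 3.24 ± 0.66. Mrc2, the paralog of Mrc1, was listed at 0.20, 0.05 and 0.06 TPM on 2, 5 and 6 counts.

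The replicates did not agree equally well for all 10 genes. On TMM-scaled log2 CPM of the expected counts, a scale for libraries and not for genes of different length, Stab1 read 10.63, 12.06 and 11.16 in replicates 1, 2 and 3, Cd36 read 5.50, 6.93 and 5.66, and Marco read 0.02, 1.25 and -0.18. In all 3 genes replicate 2 was the highest, by a range of 1.42, 1.42 and 1.43 between the highest and the lowest library. The values of replicate 2 lay 0.77, 0.90 and 0.89 above the mean of the 3 libraries. Of the 12931 genes with enough counts, 93 deviated upward in replicate 2 at least as far as Stab1, 40 as far as Cd36 and 42 as far as Marco. Marco rests on 12, 40 and 13 counts, so counting error adds to its SD. The SDs of Stab1, Cd36 and Marco (0.72, 0.78 and 0.78) stood at percentiles 97.0, 97.8 and 97.8 of all genes. Without replicate 2 they were 0.37, 0.11 and 0.14, and that of Stab1 was still at percentile 79.3. Stab1 also deviated by -0.65 in replicate 1 and Marco by -0.54 in replicate 3.

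Mrc1 and Mertk were at the other end, with SDs of 0.15 and 0.14 (percentiles 21.7 and 19.7). Msr1 (0.18) and Axl (0.21) were also below the median SD of all genes, 0.27, and Gas6 (0.34), Cd68 (0.33) and Cd163 (0.48) were above it. The median SD over the 10 genes was 0.33. Across the 10, 6 were highest in replicate 2, 4 in replicate 1 and 0 in replicate 3, against 37.6%, 36.3% and 26.1% of all genes. Without replicate 1, all 10 were higher in replicate 2 than in replicate 3, against 49.6% of all genes. These counts depended on the scale. In TPM, 4 of the 10 were highest in replicate 2 and 6 in replicate 1, against 24.2% and 57.3% of 18368 genes with a mean of at least 0.1 TPM, and 7 of the 10 were higher in replicate 2 than in replicate 3, against 45.5%.

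**Figure D2:**
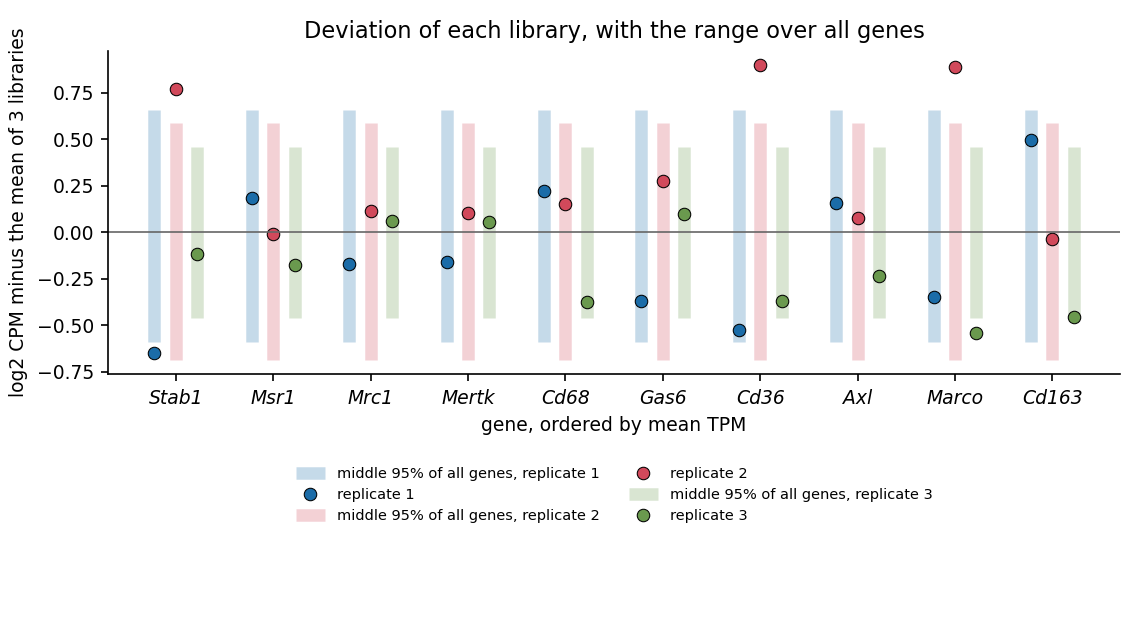
Log2 CPM of each library minus the mean of the 3 libraries (y axis) for the 10 genes (x axis, ordered by mean TPM), with pale bars for the middle 95% of all 12931 genes. The points of replicate 2 for Stab1, Cd36 and Marco lie above their bar (0.77, 0.90 and 0.89), Stab1 in replicate 1 (-0.65) and Marco in replicate 3 (-0.54) lie below theirs, and all points of Mrc1 and Mertk lie well inside.

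The higher values in replicate 2 were seen in the alignment-free table as well, where Stab1, Cd36 and Marco lay 0.85, 0.90 and 1.04 above their means. Replicate 2 is the library made from 250 ng, the smallest amount of RNA, and each amount holds 1 library, so amount, culture and library cannot be told apart and no value within an amount exists. Several of these genes are also expressed in other cell types, and the summed markers of these moved as follows. The 10 endothelial markers summed to 60.2, 70.8 and 63.1 TPM, mostly Vwf (49.3 ± 3.5 TPM) and Stab2; the other 8 of 10 had a mean below 1 TPM, and Erg was listed at 0. The 7 megakaryocyte markers summed to 12.7, 23.3 and 23.2 TPM. The 6 adipocyte markers summed to 3.09, 2.05 and 2.84 TPM, with Adipoq, Plin1, Lep and Cidec at 0, and the 8 fibroblast markers to 0.03, 1.65 and 1.75 TPM. The 10 macrophage markers summed to 1142, 844 and 910 TPM, with 7 of 10 called higher than the reference and 0 lower. The largest part of that sum was Ptprc (478, 203 and 307 TPM). On log2 CPM, the scale of the deviations above, 7 of the 10 macrophage markers were highest in replicate 2, by 0.10 (Lyz2) to 0.49 (Fcgr1) above their means. Of the 5 megakaryocyte markers with enough counts, 3 were highest in replicate 2 (Pf4 0.64, Gp1ba 0.51 and Itga2b 0.48) and 2 in replicate 3. Of the 3 such endothelial markers, Stab2 (0.69) was highest in replicate 2 and the other 2 in replicate 3. Neutrophil, dendritic cell, T and B cell and erythroid markers summed to at most 4.67 TPM in any library. Tissue-resident macrophage markers summed to 81.0, 71.8 and 54.3 TPM, with Clec4f, Gata6, Siglecf, Car4 and Sall1 at 0. Of the 3 with enough counts, Spic (0.75) and Cd5l (0.58) were above their mean log2 CPM in replicate 2 and Vcam1 was below it (-0.39). The part of these cells in the deviation of replicate 2 was not tested.

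For Cd36 the estimated level was highest in replicate 2 at each of its annotated start sites. Its 6 protein-coding isoforms begin at 3 places on chromosome 5, near 17835717, 17849792 and 17888801. Isoforms of the first place, closest to the coding exons, summed to 12.3, 23.0 and 9.67 TPM, those of the second to 2.43, 4.25 and 1.72 TPM, and those of the third to 7.62, 22.4 and 7.36 TPM. Replicate 2 was the highest in each group, in all 6 isoforms of the alignment-based table and in 5 of 6 of the alignment-free table. Reads of exons that isoforms share are divided between them by estimation, so the isoforms and start sites are not separate observations. The third place held only 51.6, 510 and 215 counts in replicates 1, 2 and 3. The first place carried 50.9% ± 4.4 of the TPM of Cd36 (SD, n = 3) and 66.4% of its counts. The alignment-free table gave it 33.3% and put 59.8% on the third place, so the division between start sites depended on the table. The RefSeq start of the window printed above, 17835896, lies 179 bases upstream of the first place, and the window ends 130 bases before it, so the window does not hold an annotated start of these isoforms.

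The level of Stab1 depended on how its isoforms were counted. Its full-length isoform Stab1-201 (69 exons, 7999 bases, 2571 residues) stood at 151, 338 and 193 TPM and carried 78.9% of the gene's counts but 40.8% ± 5.2 of its TPM. The isoform Stab1-202, a processed transcript of 242 bases, stood at 69.1, 180 and 42.6 TPM on 51, 167 and 41 counts. It carried 15.9% of the TPM on 0.19% of the counts, since its effective length was 53.5 bases in replicate 1, and in the alignment-free table its share was 0.06%. Of the 13 isoforms, 11 were highest in replicate 2, and 8 in the alignment-free table. With protein-coding isoforms only, Stab1 stood at 159, 359 and 196 TPM, and its difference to Msr1 was 1.20 ± 0.69, which did not pass the rule for neighbours. Leaving out isoforms with an effective length under 200 bases gave 1.46 ± 0.75, which did not pass either.

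Isoforms annotated as retained intron or as processed transcript made up very different shares of the 10 genes. Such isoforms carried 57.6% ± 4.5 of the TPM of Stab1 (SD, n = 3), 39.7% ± 12.5 of Axl, 39.0% ± 5.5 of Msr1, 12.2% ± 1.4 of Mertk, 7.54% ± 3.53 of Mrc1 and 4.71% ± 8.16 of Cd163, and none of that of Cd68, for which the alignment-free table gave 18.7%. The background was 7516 protein-coding genes with a mean of at least 1 TPM and an isoform of any type other than protein-coding. Their median share in such isoforms was 47.1%, with quartiles of 27.4% and 65.3%. Stab1, Axl and Msr1 were within the quartiles, and Mertk, Mrc1, Cd163 and Cd68 were below the lower one. Cd163 itself averaged less than 1 TPM and so was not in the background. Gas6, Cd36 and Marco have protein-coding isoforms only. As a share of expected counts the values were 21.03% for Stab1, 9.09% for Axl and 32.2% for Msr1, against a median of 26.9% and quartiles of 9.35% and 52.4%, so by counts Axl lay below the lower quartile. Unspliced RNA outside annotated isoforms was not measured in these tables.

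**Figure D3:**
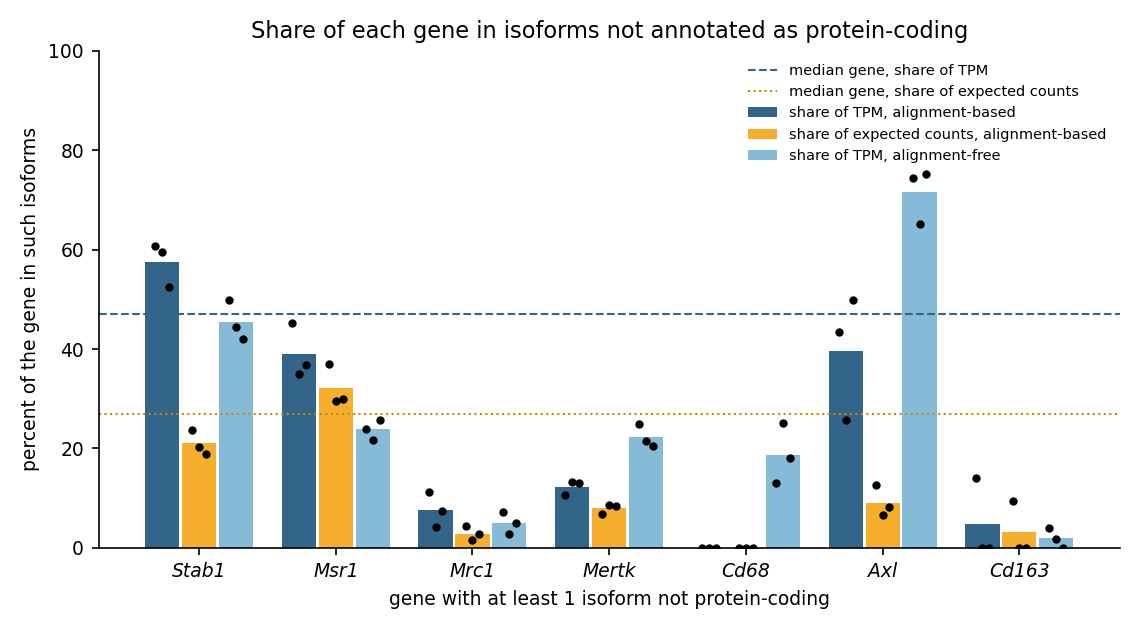
Percent of each gene (y axis) in isoforms not annotated as protein-coding, for the 7 genes that have such isoforms (x axis); bars are means and points the 3 libraries, and lines mark the median gene. Stab1 and Axl read far higher by TPM (57.6% and 39.7%) than by counts (21.03% and 9.09%), and Axl is highest in the alignment-free table (71.5%).

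For Msr1 the isoforms differ in the protein. Msr1-201 encodes 458 residues, the long form with a cysteine-rich end domain, and Msr1-202 encodes 354 residues, the short form without it. The short form stood at 104, 76.3 and 73.6 TPM and the long form at 7.52, 21.2 and 9.76 TPM, or 52.4% ± 2.4 and 8.38% ± 5.32 of the gene (SD, n = 3). The short form was above the long form in every library of this table. A retained-intron isoform of 2 exons, Msr1-204, stood at 92.5, 51.7 and 48.4 TPM (38.7% ± 5.7). In the alignment-free table the short form carried 29.5% and the long form 21.4%. There the short form stood at 94.8, 58.03 and 62.4 TPM and the long form at 51.7, 59.0 and 38.7 TPM, so the long form was slightly above it in replicate 2.

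The alignment-based and alignment-free tables gave different counts for some of these genes. Estimated counts of the alignment-free table were 1.62 times the expected counts for the median of 8767 protein-coding genes with at least 1 TPM, with quartiles of 1.40 and 2.04. The ratio was 5.24 ± 0.48 for Cd163 (SD, n = 3), 2.84 ± 0.37 for Marco and 2.25 ± 0.03 for Cd68, all above the upper quartile. For Stab1 (1.30 ± 0.06) and Gas6 (1.36 ± 0.04) it was below the lower quartile. Cd163 read 3.81, 1.64 and 1.63 TPM in the alignment-free table and was still called lower than the reference. This was higher by 1.72 on the log2 scale, beside a median of 0.46 for the same 8767 genes (quartiles 0.15 and 0.89). Genes that overlap the 10 on the opposite strand held few reads, namely Nt5dc2 at the end of Stab1 (4.81, 5.45 and 2.11 TPM, 112 shared bases), the antisense gene Gm14011 in Mertk (3, 4 and 3 counts) and Tmem255b at Gas6 (0 counts). How strand was counted is not given in the sources used here, so reads in these overlaps are uncertain.

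The remaining genes of scavenging and uptake were followed in 7 lists with 135 different genes, of which 57 were called higher than the reference, 39 lower and 39 neither. This is 42.2% higher and 28.9% lower, beside 19.4% and 44.6% of the 12310 nuclear protein-coding genes tested. The filters were unlike, since list genes were tested at any level and other genes only from a mean of 0.1 TPM. With a mean of at least 1 TPM required of every gene, 56 of 104 list genes were higher and 7 lower. At that filter 23.1% of all genes tested were higher and 23.1% lower. Of 24 other scavenger receptors, 8 were higher and 9 lower. The highest were Lrp1, a receptor for many ligands including apoptotic-cell calreticulin (208 ± 76 TPM, SD, n = 3), Cd14, the lipopolysaccharide co-receptor (208 ± 30 TPM), and Cxcl16, which also binds oxidised lipoprotein (93.0 ± 24.3 TPM). The lowest were Scara5, a ferritin receptor, listed at 0, and Cd207 and Scara3, which tied at 0.01 TPM. Stab2 (14.0 ± 4.4 TPM) and Scarb1 were neither, and Mrc2 was lower.

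Of 12 bridging and eat-me factors, 7 were higher and 3 lower. Lgals3, the gene of galectin-3 (214 ± 17 TPM), Tgm2, a transglutaminase used in uptake (148 ± 14 TPM), and Anxa1, a phosphatidylserine-binding annexin (136 ± 36 TPM), led. Ptx3 (0.02 TPM) and Edil3 (1.5 ± 0.4 TPM) were lowest; Pros1 was also lower, and Mfge8, which links phosphatidylserine to integrins, was neither (7.77 ± 1.62 TPM). Of 17 other uptake receptors, 6 were higher and 7 lower. Sirpa, the receptor of the don't-eat-me protein CD47 (1005 ± 226 TPM), and Itgav, the integrin chain that binds Mfge8 (239 ± 30 TPM), led beside Lrp1. Megf10 was listed at 0, Timd4, Havcr1 and Adgrb1 tied at 0.01 TPM on 1 count or fewer, and Tyro3 was lower (0.06 ± 0.04 TPM).

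Of 29 genes of the engulfment machinery, 14 were higher and 4 lower. Cybb, the phagocyte oxidase subunit (468 ± 193 TPM), Dock2, an activator of Rac (288 ± 10 TPM), and Abca1, the cholesterol exporter (248 ± 33 TPM), led. Gulp1, an adaptor of engulfment receptors, was listed at 0, and Bcar1 stood at 0.30 ± 0.03 TPM. Of 15 genes of receptor processing and TAM signalling, 8 were higher and 3 lower. Pik3r1, a subunit of PI3-kinase (190 ± 52 TPM), Adam17, the protease that sheds Mertk (103 ± 21 TPM), and Rhbdf2, the rhomboid-like partner of that protease (81.7 ± 2.5 TPM), led, while Timp3, its inhibitor, was among the lowest (0.22 ± 0.06 TPM) with Vkorc1 (0.51 ± 0.42 TPM), the vitamin K reductase.

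Of 24 regulators, 11 were higher and 4 lower. Nfe2l2, the oxidative stress factor NRF2 (192 ± 114 TPM), Stat3 (82.5 ± 15.2 TPM) and Stat6, the factor downstream of interleukin-4 (82.4 ± 1.7 TPM), led, and Klf4 (0.29 ± 0.05 TPM) and Cebpa (0.66 ± 0.42 TPM) were lowest. Pparg, a nuclear receptor known to induce Cd36, was higher (18.0 ± 2.4 TPM), and Nr1h3, the liver X receptor known to induce Mertk, stood at 17.9 ± 7.1 TPM and was neither. Of 16 genes of alternative activation, 5 were higher and 9 lower. Gpnmb (1063 ± 153 TPM), Il10 (66.1 ± 27.5 TPM) and Tgfb1 (57.2 ± 5.3 TPM) led, while Retnla was listed at 0 and Lyve1 stood at 0.06 ± 0.03 TPM. Mrc1, a marker of the same state, stood at 151 ± 6 TPM.

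**Figure D4:**
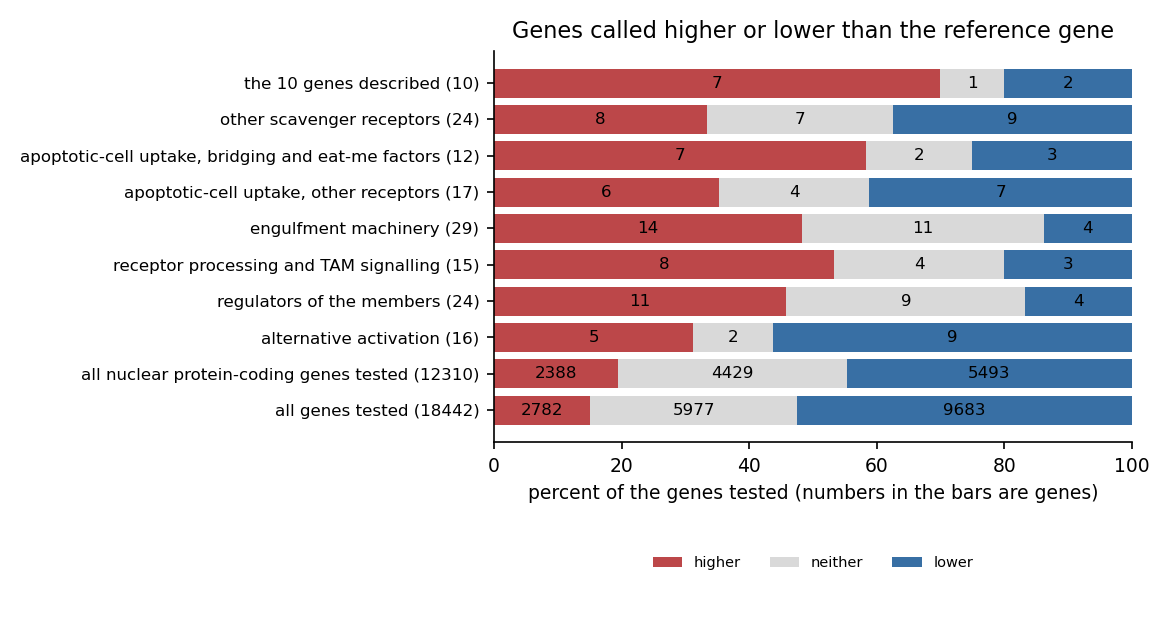
Percent of genes called higher than, lower than or neither against the reference gene (x axis), for the 10 genes, the 7 lists of related genes and all genes tested (y axis, number of genes in brackets); numbers in the bars are genes. The 10 genes hold 7 higher and 2 lower, and the alternative activation list holds 5 higher and 9 lower.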

How the data were processed

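Total RNA-seq of the chromatin fraction was analysed in 3 libraries of 1 group. Per the labels and the deposited notes, values refer to mm10 and annotation M21. Per the file headers, the authors deposited expected counts, TPM, FPKM and effective lengths per gene and transcript (derived from transcriptome alignments), and estimated counts and TPM per transcript (derived directly from reads), in the layouts of RSEM and kallisto. Which programs made them is not given in the sources used here. Replicates 1, 2 and 3 held 12699813, 18280033 and 18087091 expected counts in total, and a count of 0 allows up to 2.36e-05%, 1.64e-05% and 1.66e-05% of them (3 counts). Molecular identifiers are not named, so intervals and floors cover counting error only. The 26345 tRNA, spike-in and phiX rows were left out of tests.

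Levels were tested as log2(TPM + 0.1) minus the reference gene with limma 3.58.1 (treat, trended prior variance, 2-fold band, two-sided, Benjamini-Hochberg over all listed genes and all others averaging at least 0.1 TPM). Spread used edgeR 4.0.16 on rounded expected counts (TMM, filterByExpr minimum count 10, prior count 2); DESeq2 1.42.0 size factors were an alternative. Alternatives also covered pseudocount, filter, band, reference, FPKM, the alignment-free table and leaving out each replicate. The limma fit and the deviation between libraries were tested on simulated data, and the rule for neighbours and the motif search were not. Related genes were named by rule: the 3 highest called higher and the 2 lowest called lower of each list (ties are given), and close relatives of the 10. Icam3 was the 1 listed gene that was not matched. The 10 genes and the lists were chosen with earlier results of these data known.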

Additional observations from a re-analysis of the deposited data

How the results depend on the processing

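Counts of the 10 genes called higher stayed at 7 in 12 of 14 alternatives. They were 6 with a 4-fold band and with a reference from genes of at least 5 TPM. Of all genes tested, 15.1% were called higher in the main setting, 7.96% with the 4-fold band and 7.3% with that reference. Over the other alternatives this share ran from 5.08% with no filter on low values to 24.4% with a reference from genes of at least 0.1 TPM. Counts of the 10 genes called lower stayed at 2 except for 0 with a filter at a mean TPM of at least 1, which leaves Marco and Cd163 untested. Over all genes the share called lower was 52.5% in the main setting and 23.1% with that filter. It ran from 36.4% to 85% in the other alternatives. Of the list genes, 57 higher became 37 with a 4-fold band and 35 with the reference of at least 5 TPM. Under the filter at 1 TPM, where 104 of 135 genes are tested, 39 lower became 7. The shares over all genes also fell at these settings, as given above. Cd36 was not called with the 4-fold band (log2 1.98, limma with Benjamini-Hochberg adjusted p = 0.923) or with the higher reference (0.79, adjusted p = 0.873). Axl, called nowhere, turned sign with a reference of at least 0.1 TPM (0.96), in the alignment-free table (0.75) and, over the fits that left out 1 replicate, ranged from -0.24 to 0.028. Neighbours apart numbered 3 to 6 of 9 when 1 replicate was left out. Without replicate 1, 10 of the 10 genes were highest in replicate 2, against 49.6% of all genes. Without replicate 3 it was 6, against 49.9%. Settings on log2 CPM with all libraries gave 6, against 32.8% to 38.6% of all genes. Of the 10 genes, none that was called turned direction under the alternatives run. Marco and Cd163 rest on 12 to 55 counts a library, which limits the precision of their values. For Cd163 the tables differed by 1.72 on the log2 scale, beside a median of 0.46 over protein-coding genes with at least 1 TPM. No paired analysis was possible because the series used here holds 1 group, so no groups share replicate numbers.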

Other observations

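Genes of the related lists also moved with replicate 2, and those named here were chosen after their values were seen. Of the 110 list genes with enough counts, 61 were highest in replicate 2 on log2 CPM (55.5%, against 37.6% of all genes), 31 in replicate 1 and 18 in replicate 3. The farthest above their mean in log2 CPM of replicate 2 were Cebpa (1.04), Cd300lb (0.88), Thbs1, a ligand of Cd36 (0.85), Hmox1, the heme oxygenase (0.79), Lrp1 (0.71), Nr1h3 (0.69), Stab2 (0.69) and Lipa, the lysosomal acid lipase (0.69). The farthest below were Irf4 (-0.65), Il10 (-0.64) and Nfe2l2 (-0.64). The 10 genes of the report took 0.395%, 0.649% and 0.429% of all expected counts in replicates 1, 2 and 3. Stab1 alone held 21442, 75324 and 39305 of their 50226, 118717 and 77525 counts. The summed share therefore mostly follows Stab1 and does not describe the 10 genes one by one. On log2 CPM, 8 of the 10 lay above their mean in replicate 2, against 49.8% of all genes. In TPM, 4 of the 10 were highest in replicate 2, against 24.2% of all genes.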
